A study of Oryctolagus cuniculus with 4 samples.

Results

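Keratins and desmosome genes, the cytoskeletal filaments of epithelial cells and the junctions that anchor them, were followed in single-cell RNA sequencing libraries of rabbit ear hypertrophic scar (HS). The members were all rows of the deposited gene table whose symbol was a numbered keratin or one of the desmosomal cadherins, armadillo proteins, plakins and associated proteins fixed in a list. They numbered 46 of 13913 genes, 32 keratins and 14 desmosome genes. By their known place in epithelia, the keratins were grouped as 2 basal, 10 suprabasal, 17 hair follicle and 3 simple keratins. The 14 desmosome parts formed the last group. The suprabasal list also took in KRT4, of mucosa, and KRT3, of the cornea. From the desmosome list, PKP3, PPL, PERP and PLEC were not analysed here, and neither were KRT6A, KRT6B, KRT6C, KRT15 and KRT18.

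The tissue came from wild-type (WT) female rabbits, bought at 10 to 12 weeks of age, in which wounds on the ventral ear had healed into scars. The HS group held 2 libraries of untreated scar. The drug-loaded MNs group held 2 libraries of scar that had received microneedles (MNs), patches of fine needles that leave their tips behind in the skin, where these release a 5-fluorouracil derivative, in 3 weekly applications. Scars of both groups were taken on day 43, and the ventral epidermis and dermis were dissociated for droplet libraries (10x Genomics). No library of scar with drug-free MNs was analysed here, so an effect of the drug and one of the needles cannot be told apart. Each library came from 1 scar tissue, and the study describes those of a group as biologically independent, without saying whether they came from separate rabbits. P-values measure the spread between these tissues only.

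Keratins are built as pairs of 1 acidic type I and 1 basic type II chain. Basal keratinocytes, which divide, make KRT5 with KRT14, and cells that leave the basal layer turn to KRT1 and KRT2 with KRT10. KRT16 and KRT17 are low in resting epidermis between the hairs and are induced by wounding. Desmosomes join neighbouring cells. Desmogleins (DSG) and desmocollins (DSC) meet in the space between the cells, plakoglobin (JUP) and plakophilins (PKP) bind their tails, and desmoplakin (DSP) ties them to the keratin filaments. The hair follicle adds its own keratins, among them those of the inner root sheath.

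The table held 1 value per gene and library, which was rescaled so that 1 unit is 1 part in 1000000 of the library total. Depth was unknown, and values were not shown to be corrected for gene length, so genes are not ranked by level, and a ratio of 2 genes is given only to compare libraries with each other. Between 43 and 44 of the 46 members had a value above 0 in each library. 33 members had a mean of at least 1 unit and were tested with limma, and the other 13 stood at 1.25 units or less in each library. Of the library total, the members held 7.34% and 9.18% in HS, against 5.60% and 7.20% in drug-loaded MNs. The lower HS value lay only just above the higher drug-loaded MNs value. Suprabasal keratins made up most of this, with 5.95% and 7.65% in HS, against 4.18% and 6.08% in drug-loaded MNs. Desmosome parts held 0.52% and 0.98% in HS, against 0.65% and 0.72% in drug-loaded MNs, so they did not follow the sum. Values per library cannot tell fewer keratinocytes from less keratin RNA per keratinocyte.

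Fibroblast and macrophage markers differed between the groups, although none of these genes passed the adjusted threshold. The summed level of 6 fibroblast genes was 22996 and 22526 units in HS, against 44682 and 48616 in drug-loaded MNs, and that of 6 macrophage genes was 77.7 and 95.3 against 194 and 195 units. All 6 genes of each list were higher in drug-loaded MNs without overlap between the groups, beside 26.6% of all tested genes. The share of mitochondrially encoded genes was 2.75% and 2.80% in HS, against 4.37% and 4.58% in the treated libraries. For other cell types the median log2 fold change was 0.37 for 5 endothelial, 0.55 for 4 mural, 0.68 for 4 Schwann cell and 0.38 for 4 sebaceous genes. It was 0.08 for 6 melanocyte genes. The summed levels of these lists overlapped between the groups, as in endothelial genes, with 191 and 189 units in HS, against 146 and 194 in drug-loaded MNs. Of the endothelial genes, 2 were higher without overlap, and 1, VWF, was lower (log2 fold change -0.50). The part of these differences in the differences below was not tested. Markers of epidermis and dermis were present in all 4 libraries, with KRT14 at 1666 to 3282 units and the collagen gene COL1A2 at 12946 to 26648 units.

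None of the 33 tested members passed a limma adjusted p of 0.05, against 4 of 9348 genes (0.0428%). At an unadjusted p under 0.05 there were 2 members, or 6.06%, beside a background of 8.65%. These were KRT8, lower in drug-loaded MNs, where the background is 1.39%, and KRT71, higher, where it is 7.26%. KRT71 was listed at 0 in both HS libraries and, like KRT28, reached the filter only through drug-loaded MNs replicate 1, so these 2 had to be higher there and support nothing. The groups did not overlap in 7 members, or 21.2%, beside 37.8% of all tested genes. KRT71, KRT28 and KRT19 were higher (background 26.6%), and KRT2, KRT82, KRT8 and PKP2 were lower (background 11.2%). The log2 fold change was below 0 in 19 members and above 0 in 14, while 35.4% of all tested genes were below and 64.6% above. The median was -0.06 in members and 0.12 in all tested genes. Under median ratio scaling, which put the median of all genes at -0.0013, 25 members were below and 8 above 0. Leaving out HS replicate 1 took the median of the members to -0.13, and leaving out HS replicate 2 took it to 0.16.

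**Figure D1:**
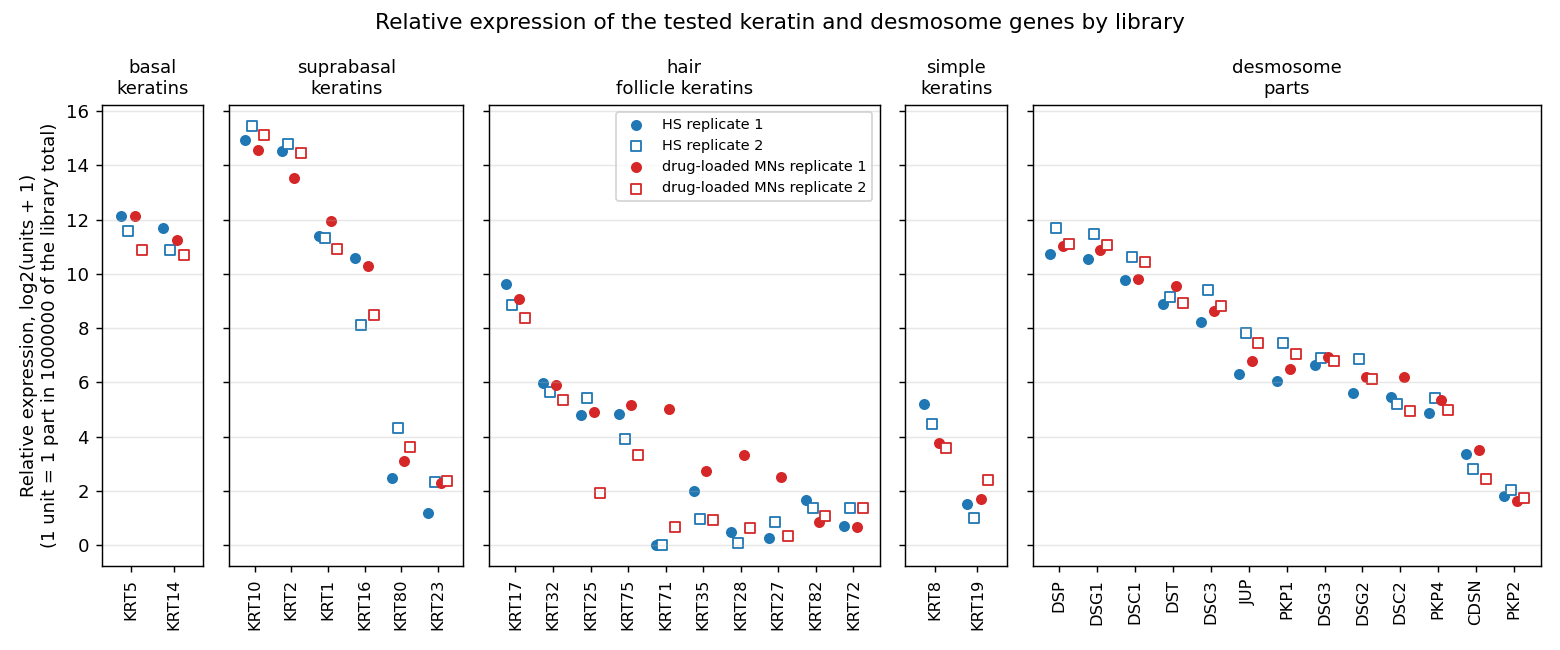
Relative expression of the 33 tested members in each library, on the y axis as log2(units + 1), with genes along the x axis in panels by group. Blue marks are HS and red marks drug-loaded MNs, and filled circles are replicate 1 and open squares replicate 2. In KRT16 both circles lie far above both squares, and in JUP and PKP1 the HS libraries are the lowest and the highest of the 4. Heights of different genes are not corrected for gene length.

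The spread between replicates was wide in these genes. In 29 of 33 members the log2 gap between the replicates of at least 1 group was larger than the log2 fold change between the groups, which was so for 75.5% of all tested genes. The median log2 gap between the HS libraries was 0.65 for members and 0.33 for all tested genes, and between the drug-loaded MNs libraries it was 0.63 and 0.23. Most of what follows therefore describes differences between single libraries.

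Among the basal keratins, KRT5 stood at 4485 and 3038 units in HS and at 4500.4 and 1887 in drug-loaded MNs. Replicate 1 was the higher library in both groups, and the groups overlapped. The log2 fold change of KRT5 was -0.34 (95% interval -1.34 to 0.66, limma adjusted p 0.889). KRT14, its type I partner, stood at 3282 and 1874 units in HS and at 2451 and 1666 in drug-loaded MNs. Here too replicate 1 was above replicate 2 in each group. The log2 fold change of KRT14 was -0.30 (95% interval -1.10 to 0.51, limma adjusted p 0.878). The log2 ratio of KRT5 to KRT14 units averaged 0.57 ± 0.17 in HS, against 0.53 ± 0.49 in the treated scars (SD, n = 2 per group), a difference well within the spread. The direction of these 2 genes rested on single libraries. Their median log2 fold change was -0.32, but it was 0.02 when HS replicate 1 was left out and 0.13 when drug-loaded MNs replicate 2 was.

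Of the differentiation keratins, KRT10 stood at 31734 and 45325 units in HS and at 24607 and 35763 in drug-loaded MNs. In each group replicate 2 was the higher library, the reverse of the basal pair. KRT10 had a log2 fold change of -0.35 (95% interval -1.22 to 0.51, limma adjusted p 0.862), and under quantile normalization it was 0, since KRT10 had the top value of the table in every library, which that method makes equal. KRT2, a type II keratin of the upper epidermal layers, stood at 23500 and 28355.5 units in HS and at 11957 and 22747 in drug-loaded MNs. Both drug-loaded MNs libraries lay below both HS libraries, by little for replicate 2 and widely for replicate 1. KRT2 had a log2 fold change of -0.65 (95% interval -1.55 to 0.26, limma adjusted p 0.739), and it was -0.18 without drug-loaded MNs replicate 1. It was below 0 under all 15 alternatives, but many of these could not turn its sign. Without overlap of the groups no left-out library could, and settings of filter, eBayes or block leave the estimate unchanged. KRT1 stood at 2689 and 2542 units in HS and at 3973 and 1940.3 in drug-loaded MNs. The HS libraries were close to each other, and the drug-loaded MNs libraries lay on either side of them. KRT1 had a log2 fold change of 0.09 (95% interval -0.74 to 0.92, limma adjusted p 0.969).

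The type II partners of KRT10 thus diverged in drug-loaded MNs replicate 1, which had the highest KRT1 and the lowest KRT2. The ratio of KRT2 to KRT1 units, read only across libraries, was 8.74 and 11.2 in HS, against 3.01 and 11.7 in drug-loaded MNs. The 3 other libraries lay close together and drug-loaded MNs replicate 1 far below them. As log2 ratios the means were 3.30 ± 0.25 and 2.57 ± 1.39 (SD, n = 2 per group), and an exact permutation test gave a two-sided p of 1, where 2 libraries against 2 cannot give less than 0.3333.

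KRT16, the wound keratin, had the widest replicate gap of the basal and suprabasal keratins. It stood at 1541 and 275 units in HS and at 1239 and 358 in drug-loaded MNs. Replicate 1 was 5.61-fold above replicate 2 in HS and 3.46-fold above it in drug-loaded MNs, while the means of the groups were 908 ± 895 and 799 ± 623 units (SD, n = 2 per group). The log2 fold change of KRT16 was 0.03, with a 95% interval from -1.88 to 1.95, and under median ratio scaling it was -0.10. KRT17, which is grouped with the hair follicle but is also induced in wounds, stood at 788 and 463 units in HS and at 545 and 329 in drug-loaded MNs. Its libraries had the same order within the groups. KRT17 had a log2 fold change of -0.51 (95% interval -1.32 to 0.29, limma adjusted p 0.767). It stayed below 0 under all 15 alternatives, of which those of filter, eBayes or block leave the estimate unchanged.

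The remaining suprabasal keratins were low. KRT80 stood at 4.53 and 19.1 units in HS and at 7.51 and 11.2 in drug-loaded MNs, with the HS libraries as both extremes. KRT23 stood at 1.27 and 3.99 units in HS and at 3.91 and 4.16 in drug-loaded MNs, where HS replicate 1 alone was low. Their log2 fold changes were -0.05 and 0.58, with 95% intervals that held 0. KRT4, a keratin of mucosa, was highest at 0.301 units, KRT3, one of the cornea, at 0.153 and KRT78 at 0.177, and KRT76 was listed at 0 throughout. The 6 tested suprabasal keratins had a median log2 fold change of -0.01, which was -0.30 without HS replicate 1.

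**Figure D2:**
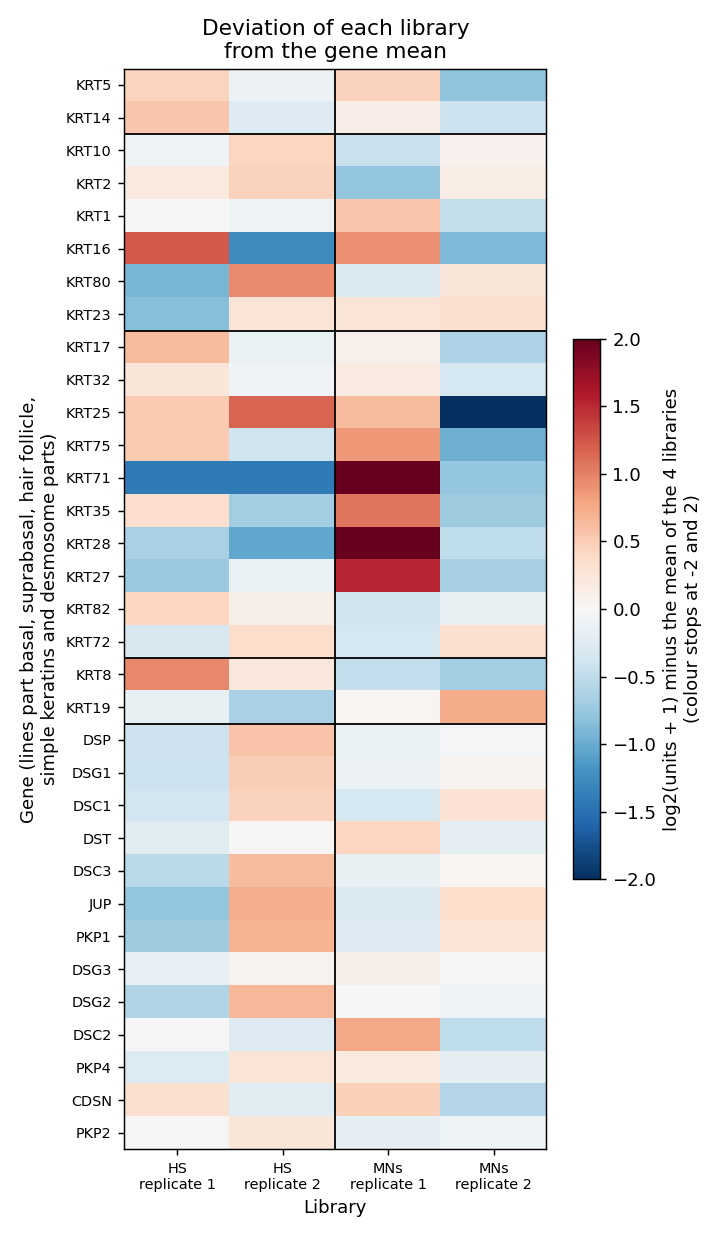
Deviation of each library (columns) from the mean of the 4 libraries for each tested member (rows), in log2(units + 1), with red above and blue below the mean and colours that stop at -2 and 2. KRT5, KRT14, KRT16 and KRT17 are redder in replicate 1 of both groups, most desmosome parts are blue in HS replicate 1 and red in HS replicate 2, and KRT71, KRT28 and KRT27 are red in drug-loaded MNs replicate 1 only.

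The balance of differentiation over basal keratins was read as a ratio within each library, which does not change with the scaling of the library. The ratio of summed KRT1 and KRT10 units to summed KRT5 and KRT14 units was 4.43 and 9.75 in HS, against 4.11 and 10.6 in drug-loaded MNs. The replicates of each group lay far apart, and the libraries that shared a number lay close together. On the log2 scale the ratio averaged 2.72 ± 0.80 for HS, with 2.72 ± 0.97 for the treated scars (SD, n = 2 per group). The difference was 0.0072 (exact permutation test, two-sided p of 1, smallest possible 0.3333). It took either sign when 1 library was left out, with -0.68 after removal of drug-loaded MNs replicate 2 and 0.69 after removal of replicate 1 of that group. The ratio of KRT16 to KRT14 split in the same way, at 0.47 and 0.15 in HS, against 0.51 and 0.22 in drug-loaded MNs. That of KRT17 to KRT14 did not, at 0.240 and 0.247 in HS, against 0.222 and 0.197 in drug-loaded MNs.

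Cycling and melanocyte markers were high in the libraries of high KRT5, KRT14 and KRT16, but markers of the basal side of the epidermis were not in HS. All 4 tested cycling genes were higher in replicate 1 than in replicate 2 of each group, with summed levels of 260 and 147 units in HS, against 352 and 157 in drug-loaded MNs. All 6 melanocyte genes had this order as well, at 362 and 162 units in HS, against 340 and 174 in drug-loaded MNs. Over all tested genes, 27.8% were higher in replicate 1 in both groups. Of 6 hemidesmosome and basement membrane genes, all were higher in replicate 1 in drug-loaded MNs, but only 3 in HS. Their summed levels were 570 and 765 units in HS, against 748 and 524 in drug-loaded MNs. COL17A1 of this list stood at 176 and 392 units in HS, against 323 and 230 in drug-loaded MNs. The part of cycling cells and melanocytes in the keratin values was not tested.

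**Figure D3:**
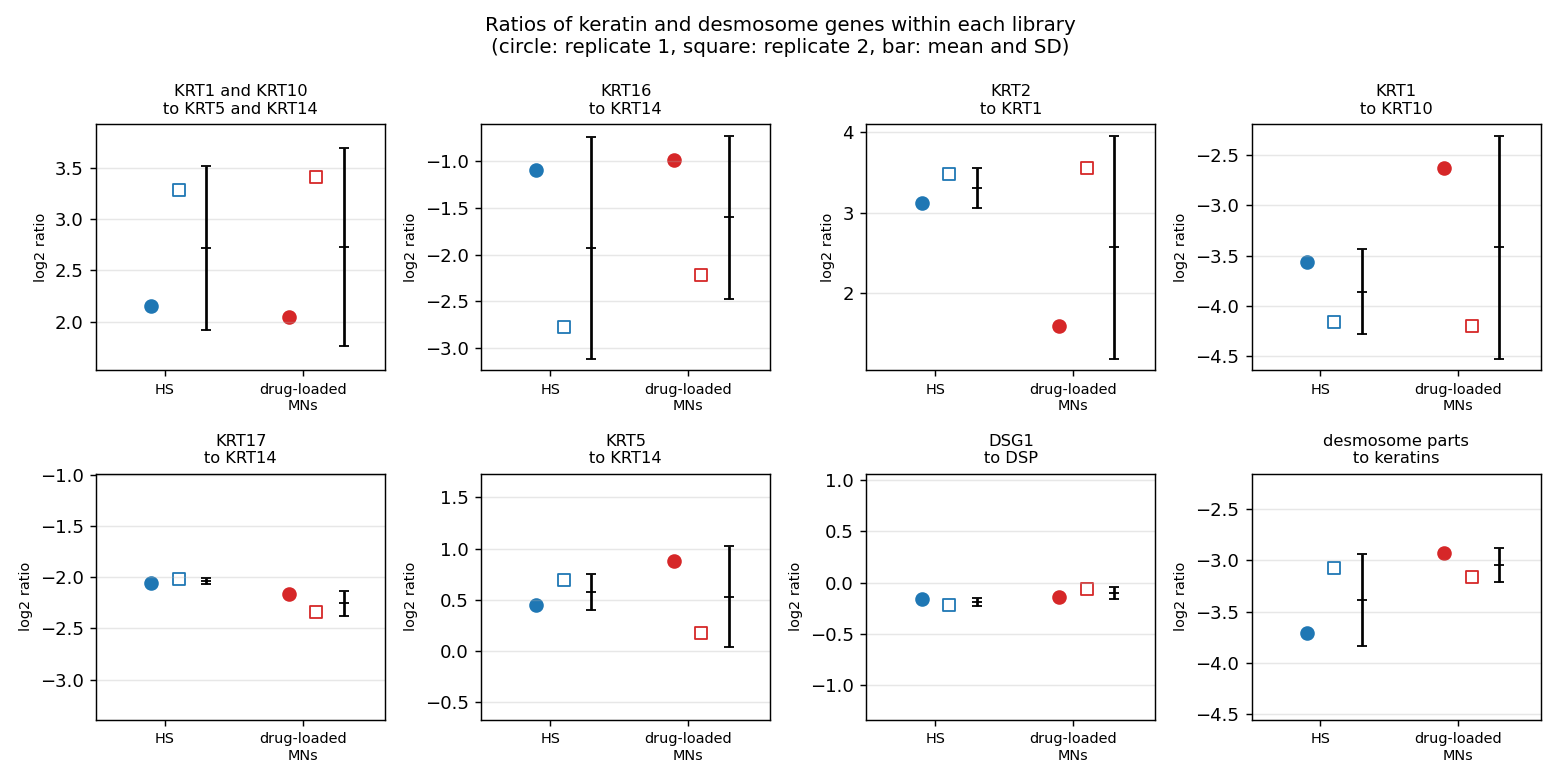
Log2 ratios within each library (y axes, which differ between panels) for 8 pairs or sums of members, in HS (blue) and drug-loaded MNs (red). Circles are replicate 1, squares replicate 2, and black bars the mean and SD of 2 libraries. The ratio of KRT1 and KRT10 to KRT5 and KRT14 separates circles from squares rather than the groups, while that of DSG1 to DSP stays between -0.22 and -0.06.

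Of the 14 desmosome parts, 13 were tested and DSG4, a cadherin of hair and the granular layer, stood at 0.21 to 0.53 units. None of the 13 reached an unadjusted p under 0.05, and the smallest was 0.408 (limma). Log2 fold changes ran from -0.26 in PKP2 to 0.25 in DSC2, with 6 above and 7 below 0 and a median of -0.06. Each of the 13 intervals held 0. Their outermost bounds were -1.06 in CDSN and 1.18 in DSC2, and the narrowest interval, of DSG3, ran from -0.43 to 0.60. The size of difference that could go unseen with 2 libraries a group thus varied between genes. Single HS libraries decided the median, which was -0.49 without HS replicate 1 and 0.36 without HS replicate 2.

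Most of the spread in desmosome genes lay between the HS libraries. HS replicate 1 was below HS replicate 2 in 11 of 13 (84.6%), which held for 59.7% of all tested genes. In 8 of the 13 (61.5%) both drug-loaded MNs values lay between the HS values, beside 20.2% of all tested genes. These genes share their libraries and many of their cells, so they are not independent of each other.

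DSP, the plakin that holds keratin filaments to the junction, stood at 1692 and 3333 units in HS and at 2067 and 2223 in drug-loaded MNs. DSG1, the desmoglein of the upper epidermis, stood at 1512 and 2865 units in HS and at 1875 and 2129.65 in drug-loaded MNs. HS replicate 1 was the lowest and HS replicate 2 the highest library in both genes. Their log2 fold changes were -0.15 for DSP (95% interval -0.95 to 0.65) and -0.06 for DSG1, with limma adjusted p of 0.942 and 0.977. The ratio of DSG1 to DSP units varied little between libraries, from 0.859 in HS replicate 2 to 0.958 in drug-loaded MNs replicate 2.

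Among the other cadherins, DSC1, the desmocollin of the upper layers, stood at 882 and 1583 units in HS and at 908 and 1405 in drug-loaded MNs. Both replicates 2 were above both replicates 1, as in KRT10. DSC3, which is strongest in the basal layer, stood at 303 and 683 units in HS and at 396 and 452 in drug-loaded MNs. DSG3, its basal counterpart among the desmogleins, stood at 100.1 and 118 units in HS and at 121 and 109.98 in drug-loaded MNs. DSG3 had the narrowest interval of the desmosome parts, with a log2 fold change of 0.09 (95% interval -0.43 to 0.60, limma adjusted p 0.948), and it was -0.05 under median ratio scaling.

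DSG2 and DSC2, the cadherins shared with simple epithelia and the hair follicle, did not follow one another. DSG2 stood at 47.7 and 116 units in HS and at 72.1 and 69.2 in drug-loaded MNs, with the drug-loaded MNs libraries close together between the HS libraries. DSC2 stood at 42.9 and 35.9 units in HS and at 72.8 and 29.97 in drug-loaded MNs, where drug-loaded MNs replicate 1 stood alone above the rest. DSC2 had a log2 fold change of 0.25, and it was -0.38 without that library.

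Among the armadillo proteins of the plaque, JUP and PKP1 had the widest HS gaps of the desmosome parts, 1.52 and 1.40 on the log2 scale, while PKP4 and PKP2 had 0.54 and 0.22. JUP, plakoglobin, stood at 78.3 and 226 units in HS and at 111 and 175 in drug-loaded MNs. PKP1, the plakophilin of differentiated keratinocytes, stood at 65.4 and 175 units in HS and at 89.7 and 130 in drug-loaded MNs. HS replicate 1 had 0.346 times the JUP and 0.375 times the PKP1 of HS replicate 2, with drug-loaded MNs replicate 1 next above it in both. Their log2 fold changes were 0.06 and 0.01, and both were below 0 under median ratio and quantile scaling. PKP4, which is also found at adherens junctions, stood at 28.7 and 42.0 units in HS and at 40.1 and 30.7 in drug-loaded MNs, and PKP2, the plakophilin of heart and simple epithelia, at 2.55 and 3.13 against 2.11 and 2.31 units. PKP2 was the desmosome part whose groups did not overlap (log2 fold change -0.26, 95% interval -0.94 to 0.43).

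The last of the desmosome list lie at either end of the epidermis. DST, which in basal keratinocytes fastens keratin to hemidesmosomes, stood at 469 and 564 units in HS and at 753 and 486 in drug-loaded MNs. CDSN, corneodesmosin, which holds the cells of the cornified layer together, stood at 9.24 and 6.08 units in HS and at 10.4 and 4.49 in drug-loaded MNs. Replicate 1 of drug-loaded MNs was the highest library in both genes. Log2 fold changes were 0.23 for DST and -0.11 for CDSN, with limma adjusted p of 0.881 and 0.968. The ratio of summed desmosome to summed keratin units was 0.0767 and 0.119 in HS and 0.132 and 0.112 in the treated libraries. HS replicate 1 was the library that stood low in this ratio of sums. The log2 ratio of the sums differed by 0.35 (exact permutation test, two-sided p of 0.667). The mean log2(units + 1) of desmosome parts minus that of keratins was 2.63 and 3.32 in HS, against 2.63 and 3.21 in drug-loaded MNs. By that measure replicate 1 was the low library of both groups.

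The hair follicle keratins held the largest single differences. 10 of 17 were tested, with 4 above and 6 below 0 and a median log2 fold change of -0.07. Left without replicate 2 of drug-loaded MNs it was 0.81, and left without replicate 1 it was -0.53. KRT71, a type II keratin of the inner root sheath, was listed at 0 in both HS libraries and stood at 31.6 and 0.574 units in drug-loaded MNs. Replicate 1 thus carried nearly the whole signal. The limma adjusted p of KRT71 was 0.551, and no fold is given against a group listed at 0. KRT28, a type I keratin of the same sheath, stood at 0.400 and 0.0666 units in HS and at 9.06 and 0.533 in drug-loaded MNs (log2 fold change 1.68, limma adjusted p 0.620). KRT27 stood at 0.190 and 0.819 units in HS and at 4.70 and 0.259 in drug-loaded MNs, so its groups overlapped. KRT71, KRT28 and KRT27 reached a mean of 1 unit only through drug-loaded MNs replicate 1, and without that library they were not tested. Without drug-loaded MNs replicate 2, where replicate 1 is the lone treated library and its spread is taken from the HS group, all 3 passed the threshold, but that comparison rests on the library that brought them over the filter and is no test of them.

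The same library did not lead in every inner root sheath keratin. It was the highest in 4 of the 7, and in 40.1% of all tested genes. KRT73, below the filter, was the other one, at 0.111 and 0.217 units in HS, against 1.09 and 0.236 in drug-loaded MNs. KRT25 stood at 26.5 and 42.1 units in HS and at 28.8 and 2.84 in drug-loaded MNs. Here drug-loaded MNs replicate 2 stood apart as the low library. KRT25 had a log2 fold change of -1.69 (95% interval -3.61 to 0.23, limma adjusted p 0.663), and it was -0.21 without that library. Without drug-loaded MNs replicate 1 it was -3.17 and passed the threshold, with the low library as the lone treated one. KRT72 stood at 0.648 and 1.61 units in HS and at 0.601 and 1.56 in drug-loaded MNs, and KRT26 was highest at 0.391 units in HS replicate 2.

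The groups overlapped in most other follicle keratins. KRT75, of the companion layer, stood at 27.3 and 14.0 units in HS and at 35.1 and 9.04 in drug-loaded MNs, and KRT35, of the hair cortex, at 2.96 and 0.953 against 5.65 and 0.922 units. Replicate 1 was the higher library of each group in both, as in KRT17. KRT32, a cuticle keratin, had the narrowest interval of the follicle keratins, at 61.7 and 49.2 units in HS, against 58.4 and 40.3 in drug-loaded MNs (log2 fold change -0.18, 95% interval -0.81 to 0.45). KRT82, another cuticle keratin, stood at 2.18 and 1.57 units in HS, against 0.808 and 1.13 in drug-loaded MNs, without overlap (log2 fold change -0.54, limma adjusted p 0.727). KRT34, KRT39, KRT40, KRT84 and KRT85 stayed below the filter, with KRT85 highest at 1.23 units in drug-loaded MNs replicate 1. Of 6 follicle genes other than keratins, 2 were above and 4 below 0, with a median log2 fold change of -0.23.

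**Figure D4:**
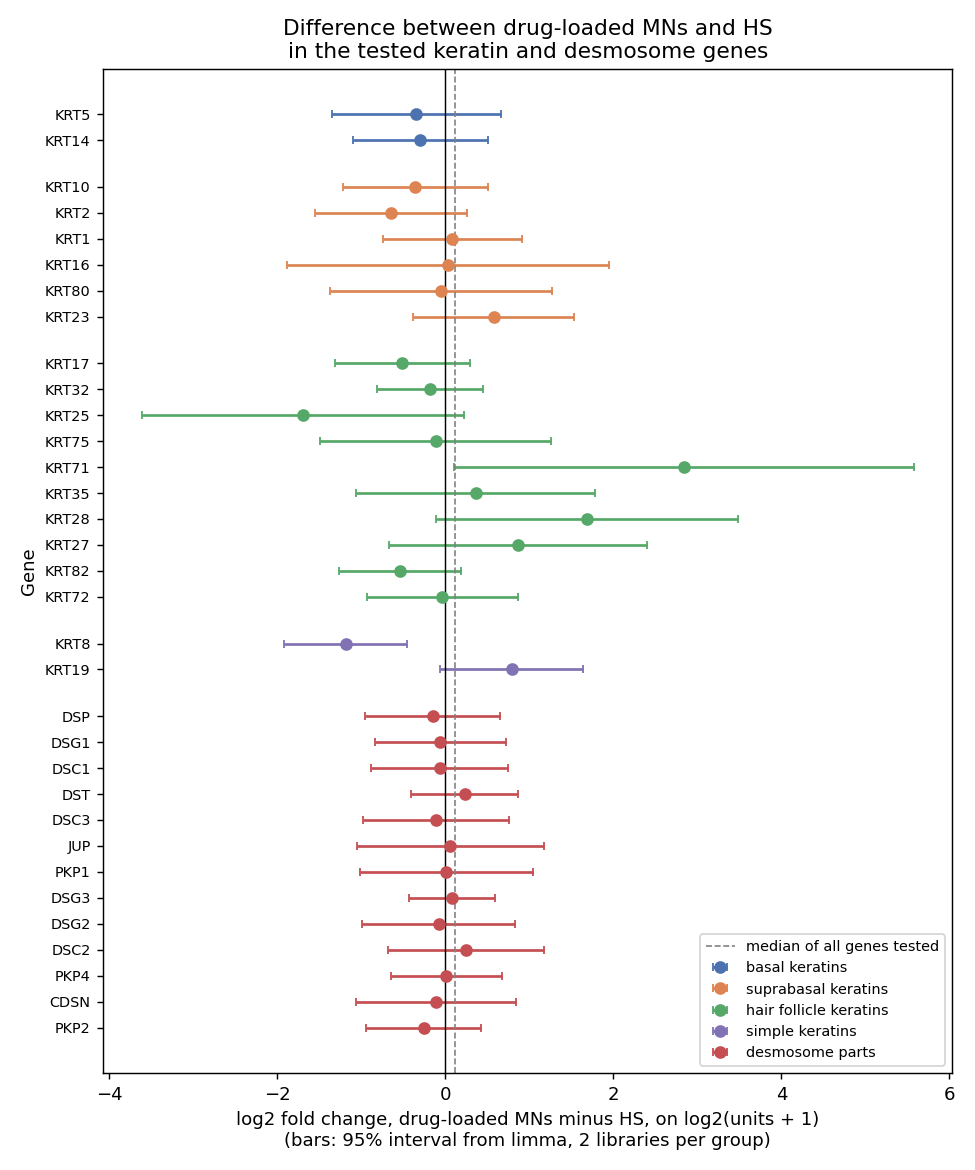
Log2 fold change of each tested member (x axis, drug-loaded MNs minus HS on log2(units + 1)), with its 95% interval from limma and coloured by group; the dashed line is the median of all tested genes, 0.12. The intervals of KRT8 and KRT71 leave out 0, the other 31 hold it, and those of KRT71, KRT25 and KRT16 are the widest. KRT71 was listed at 0 in HS, so its position depends on the pseudocount.

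Among the simple keratins, KRT8 had the smallest p of all members. This type II keratin of simple epithelia and Merkel cells stood at 36.1 and 21.3 units in HS and at 12.5 and 10.9 in drug-loaded MNs. Both treated libraries lay below both HS libraries, and they lay closer to each other than the HS libraries did. The means were 28.7 ± 10.5 and 11.7 ± 1.15 units (SD, n = 2 per group). The log2 fold change of KRT8 was -1.18 (SE 0.31, 95% interval -1.91 to -0.45), with an unadjusted limma p of 0.00626 and an adjusted p of 0.344. It was below 0 under all 15 alternatives, but many of these could not turn its sign. The groups did not overlap, so no left-out library could, and settings of filter, eBayes or block leave the estimate unchanged. Without HS replicate 2 the log2 fold change was -1.55, and without HS replicate 1 it was -0.81. Under median ratio scaling KRT8 was at -1.31 and under quantile normalization at -1.35. Its partner KRT18 was not analysed here. KRT19, a type I keratin of simple epithelia and the follicle bulge, went the other way, at 1.84 and 1.01 units in HS, against 2.23 and 4.28 in drug-loaded MNs (log2 fold change 0.79, limma adjusted p 0.624). KRT7 stood at 0.498 and 1.25 units in HS, against 0.570 and 0.586 in drug-loaded MNs.

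Genes that work beside the members were read in the same way. Of 24 cornified envelope genes listed, only 5 were analysed here. All 5 were below 0, beside 35.4% of all tested genes, with a median log2 fold change of -0.25 and 0 at an unadjusted p under 0.05. CST6, a protease inhibitor of the cornified layer, stood at 985 and 584 units in HS, against 827 and 419.5 in drug-loaded MNs. The 6 hemidesmosome and basement membrane genes had 3 above and 3 below 0 and a median of -0.07. The 6 keratinocyte transcription factors had 1 above and 5 below 0 and a median of -0.19, with the background of all genes at 35.4% below 0. GRHL3, a driver of late differentiation, had the smallest p of them, at 30.3 and 31.1 units in HS, against 21.5 and 14.5 in drug-loaded MNs (log2 fold change -0.76, limma adjusted p 0.474). PRDM1, another factor of late differentiation, was the 1 above 0 and its groups did not overlap either, at 12.5 and 13.5 units in HS, against 18.7 and 25.1 in drug-loaded MNs (log2 fold change 0.70, limma adjusted p 0.517). It was named after its values were seen. GATA3, a regulator of epidermal and follicle differentiation, stood at 266 and 409 units in HS, against 242 and 349 in drug-loaded MNs. All 6 factors were lower in HS replicate 1 than in HS replicate 2, as most desmosome parts and 59.7% of all tested genes were. In GRHL3 and PRDM1 the HS libraries differed little.

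Of 7 tested intermediate filament genes other than keratins, nuclear lamins included, 5 were above 0, beside 64.6% of all tested genes, and the median log2 fold change was 0.68. LMNA, a lamin, and PRPH, peripherin of neurons, were the 2 below 0, at -0.22 and -0.28 without overlap of the groups, and were also named after their values were seen. VIM, vimentin of mesenchymal cells, stood at 4154 and 2704 units in HS and at 7263 and 4906 in drug-loaded MNs (log2 fold change 0.83, limma adjusted p 0.524). Both treated libraries were above both HS libraries, and in each group replicate 1 was the higher, as in KRT5. NES, nestin, had the smallest p of this list, at 6.87 and 7.14 units in HS, against 13.01 and 11.2 in drug-loaded MNs (log2 fold change 0.71, limma adjusted p 0.505).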

How the data were processed

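The deposited table held 1 expression signal per gene and library, and each column summed to 10000. Although it was named for FPKM, correction for gene length was not shown. Per the labels, the authors made 10x Genomics libraries of the 3-prime kind and used Cell Ranger 2.1.1. The submitters' processing notes name the mouse build mm10, while the gene identifiers were rabbit Ensembl identifiers, so the build was not settled. Cells were then handled in Seurat, and removal of batch effects is mentioned. Whether it had changed these values, how cells were combined, how doublets were treated and how reads shared by near-identical keratins were counted is not given in the sources used here.

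Values were rescaled to a total of 1000000, the 9348 genes that averaged 1 unit or more were tested, and log2(value + 1) was fitted with limma 3.58.1 (lmFit, eBayes with trend) under R 4.3.3, with 2 libraries a group and no covariate. P-values were two-sided and adjusted by the Benjamini-Hochberg method over all tested genes, with a threshold of 0.05. Fold changes on this scale understate those of low genes. Ratios were compared by exact permutation over libraries. The fit was run on data simulated with independent noise for each gene and library. The check required only that known shifts came back at about their size. It does not show how the fit does where genes or libraries vary together. Only 18.5% to 21.7% of low values lay within 0.1 of whole multiples of the smallest value, so reads could not be recovered, depth stayed unknown and no count model was run.

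Members were all table rows that matched the symbol rule. Each tested member was given with its values, and a gene of another list was named where it was highest or had the smallest p. Ratios of single pairs of genes, and the counts of genes by the order of their libraries, were chosen after the values were seen. The members, lists and tests were chosen with earlier results of these data known. Alternatives were median ratio scaling, quantile normalization, totals without abundant genes or without the members, a pseudocount of 0.1 or of 5, another filter (none, or a mean of 5 units), eBayes run robustly or with no trend, a replicate block, and leaving out each library.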

Additional observations from a re-analysis of the deposited data

How the results depend on the processing

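All 9348 tested genes gave 4 calls, which became 0 with median ratio scaling, quantile normalization, either other total, a pseudocount of 5 or no filter, 1 without trend, 241 with the replicate block, and 0 to 75 without 1 library. No keratin or desmosome gene was called, except 4 with the replicate block (KRT25, KRT28, KRT71 and KRT8, the last at a limma adjusted p of 0.0266) and 0 to 3 without 1 library. The same-numbered libraries' deviations correlated at 0.22 across genes, and with 2 pairs the numbers show no pairing. At an unadjusted limma p under 0.05 the 2 members became 1 under median ratio scaling, the total without abundant genes, a pseudocount of 5 or robust eBayes. They became 3 with a pseudocount of 0.1 or without trend, and 8 with the block. Under quantile normalization the 2 were KRT2 and KRT8, and with no filter KRT8 and KRT82. Of all genes at that p, 83.9% were higher in drug-loaded MNs, which was 65.8% with median ratio scaling and 59.03% after quantile normalization. The median of simple keratins was -1.18 with a minimum mean of 5, where 1 gene was left. Without 1 library, medians ran from -0.30 to 0.12 in suprabasal keratins, -0.53 to 0.81 in hair follicle keratins and -0.49 to 0.36 in desmosome parts.

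Of 33 tested members, 11 kept their sign in every alternative that gave a value and 22 did not, 14 of these only when a library was left out. Settings of filter, eBayes or block left each estimate unchanged, so they could not turn a sign. Nor could a left-out library in the 7 members whose groups did not overlap, all of them among the 11. Their kept signs were thus largely fixed in advance. Under median ratio scaling PKP4 was -0.12, PKP1 -0.12, KRT16 -0.10, JUP -0.070, DSG3 -0.048 and KRT1 -0.048 on the log2 scale. Under quantile normalization PKP4 was -0.093, PKP1 -0.060, JUP -0.013, DSC1 0.036 and KRT10 0, the last by construction. With the total without the members PKP4 was -0.013 and PKP1 -0.014. Over the 4 fits without 1 library, log2 fold changes that took both signs ran as follows: CDSN -0.63 to 0.42, DSC1 -0.49 to 0.36, DSC2 -0.38 to 0.87, DSC3 -0.69 to 0.48, DSG1 -0.52 to 0.40, DSG2 -0.71 to 0.56, DSG3 -0.033 to 0.20. In the same fits the lowest and highest values were DSP -0.64 to 0.34, DST -0.083 to 0.55, JUP -0.70 to 0.82, KRT1 -0.43 to 0.60, KRT14 -0.70 to 0.11, KRT16 -1.21 to 1.28, KRT32 -0.44 to 0.084. The rest ran KRT35 -0.53 to 1.26, KRT5 -0.97 to 0.29, KRT72 -0.37 to 0.30, KRT75 -1.04 to 0.81, KRT80 -0.98 to 0.88, PKP1 -0.69 to 0.72, PKP4 -0.25 to 0.28. The ratio of KRT1 and KRT10 to KRT5 and KRT14 differed by -0.11 when all suprabasal and basal keratins were summed, and by -0.68 to 0.69 without 1 library. The ratio of desmosome parts to keratins differed by -0.056 as a mean of log values. Apart from fits with fewer libraries or genes, the cause was not tested. Depth is unknown, and 2 libraries a group limit every test.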
